A study of Mus musculus with 6 samples.

Results

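The 46 genes examined here encode chromatin remodelers and heterochromatin factors, and their transcripts were compared in tibias of mice with and without deletion of *Atrx* in the osteoblast lineage. They were taken by gene symbol from a fixed list of SNF2-family remodelers, histone H3K9 and H3K27 methyltransferases, HP1 proteins, DNA methylation factors and associated silencing proteins. All 46 matched 1 of the 55401 gene identifiers of the series, and all 46 were among the 20636 genes that passed the filter on low counts. The 3 Atrx-cKO mice were *Osterix-Cre; Atrx* f/y males and the 3 control mice were *Atrx* f/y males without the transgene, all 8 weeks old, and each mouse gave 1 library from a whole tibia. The floxed *Atrx* allele was thus shared by all 6 mice. Only the Atrx-cKO mice carried *Osterix-Cre*, a Tet-off Cre that acts in preosteoblasts and their descendants and was held off with doxycycline through embryonic life and until weaning. Effects of the transgene and of *Atrx* deletion therefore cannot be told apart in these libraries. A tibia also holds marrow, cartilage, vessels and attached muscle, so that in every value given here fewer cells of a type and less RNA per cell cannot be told apart, and a change limited to osteoblastic cells is diluted by the other cells.

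ATRX itself belongs to the SNF2 family, whose members use ATP to slide, evict or exchange nucleosomes. It recognizes chromatin carrying trimethylated H3K9 and, with its partner DAXX, places histone H3.3 at repeats and telomeres. The genes examined here act on the same kinds of chromatin: relatives of ATRX with other remodeling tasks, the enzymes that methylate H3K9, the HP1 proteins that bind this mark, the enzymes that methylate DNA, and polycomb repressive complex 2 (PRC2), which methylates H3K27. The question was whether their own transcripts differed in bone when *Atrx* was deleted from preosteoblasts.

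Each library held between 50977777 and 70571655 reads on genes. Osteoblast and osteocyte marker genes were detected in every library, with no marker at 0 counts, so that the labelled tissue was represented. *Atrx*, the targeted gene, was at 153, 166 and 171 CPM (counts per 1000000 reads on genes, scaled by TMM) in the Atrx-cKO libraries and at 174, 166 and 165 CPM in the controls, with a log2 fold change of -0.047 (adjusted p = 0.992 by edgeR's quasi-likelihood test after Benjamini-Hochberg correction). Since reads were summed over all exons and all cells of the bone, this value is no check of the deletion. Control replicate 3 stood apart by its skeletal muscle markers, which summed to 11991 CPM against 681 to 2448 CPM in the other 5 libraries. Control replicate 1 had the lowest sum of the osteoblast and osteocyte markers, 109113 CPM. The sum was 185030 and 166609 CPM in the other controls and 115112 to 118454 CPM in the Atrx-cKO libraries. Most of it came from *Col1a1* and *Col1a2*, at 53548 and 50187 CPM in control replicate 1. Among the controls *Sost* alone went the other way, at 241 CPM in control replicate 1 against 63.8 and 64.4 CPM.

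None of the 46 genes passed the test between Atrx-cKO and control tibias. At an adjusted p under 0.05, 0 of 46 were called, where 3 of all 20636 genes (0.0145%) were, and at an unadjusted p under 0.05 the count was also 0 of 46 against 751 genes (3.64%). DESeq2 called 0 of 46 by either threshold, with 0.155% of all genes called at an adjusted p under 0.05 and 2.8% at an unadjusted p under 0.05. Adjusted p-values from edgeR ran from 0.992 to 0.998, and the lowest unadjusted p was 0.0746, for *Morc3*. The log2 fold changes, Atrx-cKO against control, ran from -0.10 (*Ehmt2*) to 0.27 (*Chd5*), with a median of 0.048 against 0.0050 over all genes tested. They were above 0 for 30 genes and below 0 for 16. The median fell to 0.0016 without control replicate 3, the direction turned for 24 of the 46 genes in at least 1 fit with a library left out, and the value of *Chd5* moved between 0.068 and 0.57 over those fits.

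The intervals say how large a difference these libraries leave room for. The median standard error of the log2 fold change was 0.0907 for the 46 genes against 0.167 for all genes tested, and the 95% interval lay within 0.5 on the log2 scale in either direction for 41 of 46 (89.1%), against 47.7% of all genes. The exceptions were *Smarca1*, *Hells*, *Suv39h2*, *Uhrf1* and *Chd5*, and only that of *Chd5* reached past 1. For most of this group a change of the size of 0.5 in the RNA of the whole tibia therefore lay outside the interval, which says nothing about the fraction of RNA that came from osteoblastic cells.

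**Figure D1:**
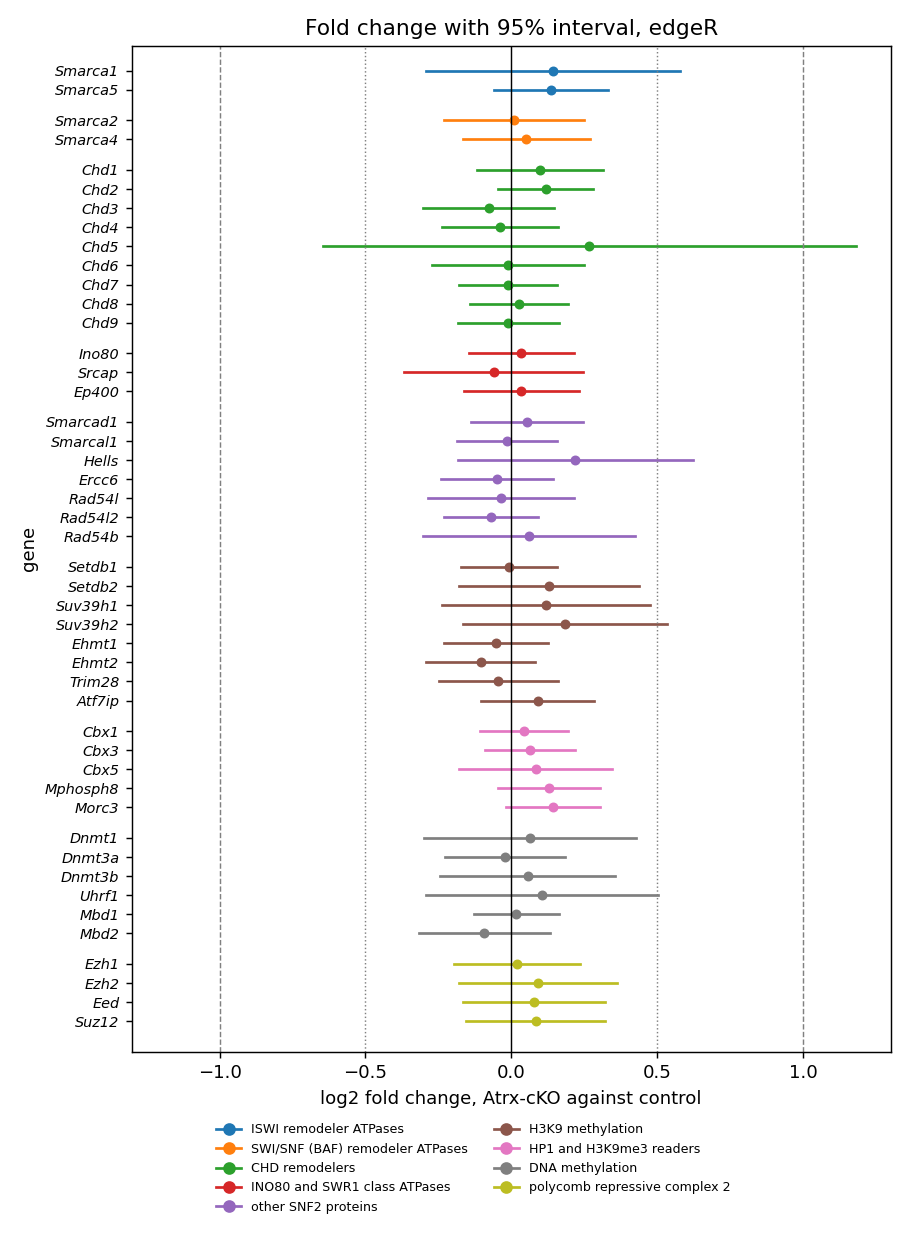
Log2 fold change of each of the 46 genes, Atrx-cKO against control, by family. Points are edgeR estimates and bars are 95% intervals. Every interval includes 0, and 41 of 46 lie between the dotted lines at -0.5 and 0.5.

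The genes differed far more from each other than between genotypes. Levels between genes were compared as CPM per kilobase of merged exons, averaged over the 6 libraries. Merged exons take in every annotated transcript of a gene, so the order of levels depends on the annotation. The most abundant was *Chd4*, the main ATPase of the nucleosome remodeling and deacetylase complex NuRD, at 49.5 CPM per kilobase, followed by the methyl-CpG binding protein gene *Mbd2* at 45.8 and the corepressor gene *Trim28* at 43.8. *Smarca4*, *Ehmt2* and *Cbx1* came next at 27.3, 26.3 and 21.1 CPM per kilobase. At the other end were *Suv39h2* at 1.73, *Rad54b* at 1.18, *Srcap* at 0.600 and *Chd5* at 0.0753 CPM per kilobase. The median of the 46 genes was 8.40 CPM per kilobase against 3.50 over the 20605 tested genes with a known length, and 37 of the 46 lay above the latter.

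**Figure D2:**
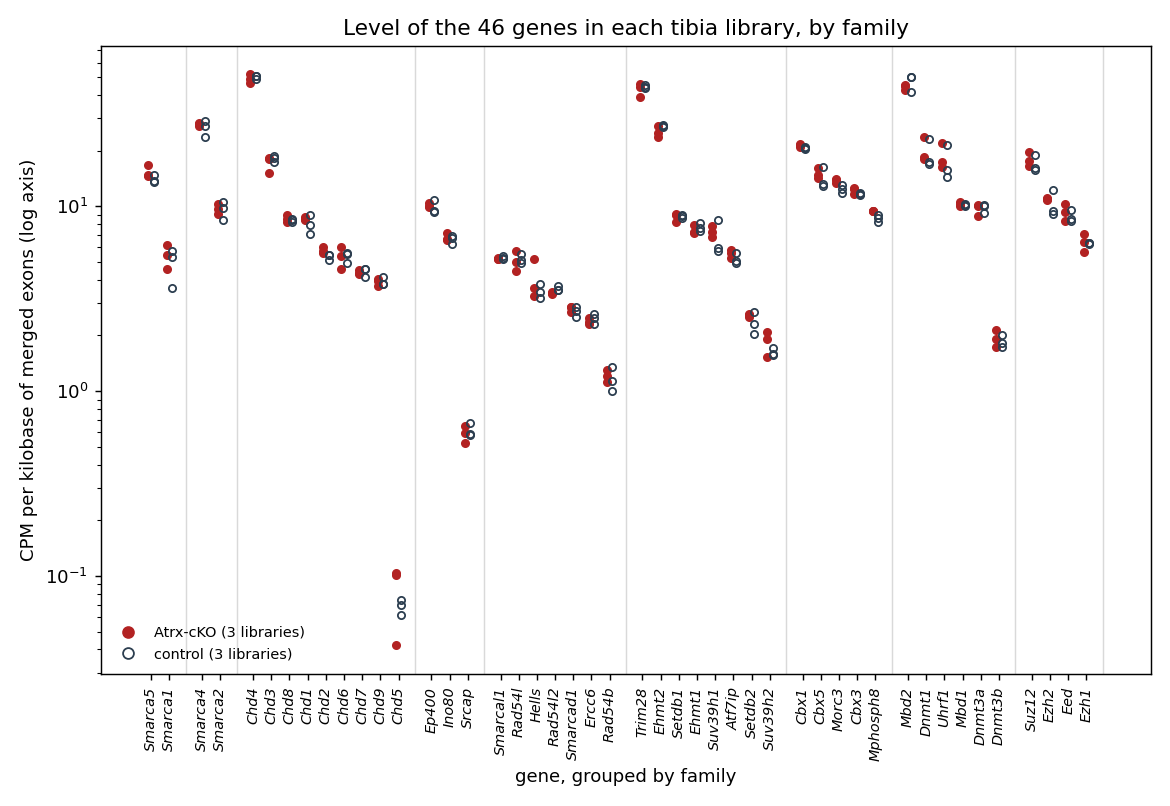
Level of each gene in every library, in CPM per kilobase of merged exons on a log axis. Filled points are the 3 Atrx-cKO libraries and open points the 3 control libraries, and vertical lines separate the families in this order: ISWI, SWI/SNF, CHD, INO80 and SWR1 class, other SNF2 proteins, H3K9 methylation, HP1 proteins and other readers, DNA methylation, and PRC2. Genes span from 0.0753 (*Chd5*) to 49.5 (*Chd4*), and the genotypes overlap for 41 of 46.

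Among the remodelers, the ISWI ATPases *Smarca5* (SNF2H) and *Smarca1* (SNF2L), which space nucleosomes, had the same direction without passing the test. *Smarca5* was at 130, 114 and 115 CPM in the Atrx-cKO libraries and 114, 107 and 105 CPM in the controls, with a log2 fold change of 0.14 (95% interval -0.059 to 0.33). *Smarca1* was at 27.9, 37.8 and 33.5 CPM against 22.1, 35.2 and 32.4 CPM, with a log2 fold change of 0.14 (95% interval -0.29 to 0.58). For *Smarca5* the Atrx-cKO libraries touched the top of the control range, whereas for *Smarca1* the lowest value of each genotype was replicate 1. Per length, *Smarca5* exceeded *Smarca1* by 2.92 ± 0.674 times in Atrx-cKO and 3.01 ± 0.923 times in control (SD, n = 3 each).

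*Smarca4* (BRG1) and *Smarca2* (BRM) are alternative ATPases of the SWI/SNF or BAF complex, which opens chromatin at enhancers and promoters. *Smarca4* was at 182, 176 and 181 CPM in Atrx-cKO and 188, 154 and 177 CPM in control, and *Smarca2* at 129, 137 and 147 CPM against 121, 150 and 140 CPM. Values of both genes overlapped between genotypes, with log2 fold changes of 0.052 and 0.0080. The *Smarca4* to *Smarca2* ratio per length was 2.88 ± 0.203 in Atrx-cKO and 2.83 ± 0.589 in control (SD, n = 3 each). *Smarca4* thus had the higher RNA level per length in either genotype, and it was also higher in CPM without the division by length.

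The 9 CHD remodelers carry chromodomains beside the ATPase, and 4 of their log2 fold changes were above 0 and 5 below. *Chd4* was at 415, 371 and 390 CPM in Atrx-cKO and 406, 392 and 408 CPM in control, overlapping and with a log2 fold change of -0.037 (95% interval -0.24 to 0.16). *Chd3*, which can take the place of *Chd4* in NuRD, had a log2 fold change of -0.077. *Chd5*, the NuRD ATPase of neurons and testis, was barely detected, at 23 to 58 counts per library: 0.992, 0.403 and 0.968 CPM in Atrx-cKO and 0.666, 0.585 and 0.714 CPM in control. Its log2 fold change of 0.27 had the widest interval of the 46 genes, -0.64 to 1.18. *Chd1*, whose protein binds methylated H3K4 at transcribed genes, had a log2 fold change of 0.098. The values of *Chd6*, *Chd7*, the gene mutated in CHARGE syndrome, *Chd8*, a gene recurrently mutated in autism, and *Chd9* lay between -0.012 and 0.027.

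*Chd2* was the exception in this family in that its genotypes did not overlap. Its protein is a remodeler of transcribed chromatin that has been linked to the placement of histone H3.3. The gene (ENSMUSG00000078671, chromosome 7 from 73426638 to 73541830 of GRCm38) was at 82.3, 79.7 and 86.5 CPM in Atrx-cKO and 77.7, 73.7 and 77.6 CPM in control. All 3 Atrx-cKO libraries thus lay above all 3 controls, by a log2 fold change of 0.12 ± 0.0697 (SE) that did not pass the test (edgeR unadjusted p = 0.131). A same-strand noncoding gene, *1810026B05Rik*, shares 2628 of the 14300 exon bases of *Chd2*.

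Of the INO80 and SWR1 class, *Ep400*, the ATPase of the TIP60 complex, was at 145, 140 and 139 CPM in Atrx-cKO and 151, 132 and 131 CPM in control, and *Ino80* had a log2 fold change of 0.035, the same as *Ep400*. *Srcap*, which exchanges histone H2A for H2A.Z, was the lowest of the 3, at 8.28, 10.2 and 9.32 CPM against 9.10, 10.6 and 9.31 CPM, with overlapping genotypes and a log2 fold change of -0.059. The annotation places another gene, *Gm42715*, on 9738 of its 15783 exon bases in the same direction, and reads that fall on more than 1 gene were tallied apart, so that the count of *Srcap* is a partial count and its place in the order of levels is uncertain.

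The other SNF2 proteins work in DNA repair, replication and methylation. *Smarcal1*, which remodels stalled replication forks, had the highest level per length of these 7 and was also among the steadiest of the 46, at 29.6, 30.1 and 29.7 CPM in Atrx-cKO and 29.9, 30.9 and 29.6 CPM in control. *Rad54b*, a recombination factor, was the lowest at 7.53, 6.99 and 6.47 CPM against 7.80, 6.55 and 5.76 CPM, and shares 2068 of its 5782 exon bases with the same-strand gene *Fsbp*. *Hells* (LSH), a remodeler needed for DNA methylation of repeats, had the largest log2 fold change of the group, 0.22 (95% interval -0.18 to 0.62), and it rested on Atrx-cKO replicate 1: the values were 37.4, 26.2 and 23.7 CPM in Atrx-cKO and 27.2, 24.8 and 22.9 CPM in control, and without that library the log2 fold change was -0.0035. *Smarcad1*, which keeps silent chromatin through replication, *Ercc6*, which acts in transcription-coupled repair, and *Rad54l*, the main recombination ATPase, had log2 fold changes of 0.054, -0.050 and -0.034.

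*Rad54l2* (ARIP4), a SNF2 protein that interacts with the androgen receptor, was the only member of the 46 whose Atrx-cKO libraries all lay below the controls. It lies on chromosome 9 from 106688082 to 106789194 (ENSMUSG00000040661). Its values were 39.9, 40.3 and 40.8 CPM in Atrx-cKO and 43.8, 41.5 and 41.7 CPM in control, a gap of less than 1 CPM between the nearest libraries. The log2 fold change was -0.069 ± 0.0693 (SE, edgeR unadjusted p = 0.353).

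The enzymes of H3K9 methylation and their cofactors split evenly, 4 of 8 above 0 and 4 below. *Trim28* (KAP1), which KRAB zinc finger proteins use to recruit silencing enzymes, was the most abundant at 190, 185 and 163 CPM in Atrx-cKO and 189, 182 and 183 CPM in control. *Setdb1*, the methyltransferase that *Trim28* recruits, hardly differed, with a log2 fold change of -0.0068 (95% interval -0.17 to 0.16), and its cofactor gene *Atf7ip* was at 0.091. *Setdb2* was at 0.13. *Suv39h1* and *Suv39h2*, which write trimethylated H3K9 at pericentric repeats, had log2 fold changes of 0.12 and 0.18. *Suv39h2*, the least abundant of the 8 per length, was at 9.17, 8.49 and 6.74 CPM in Atrx-cKO and 7.01, 7.54 and 6.91 CPM in control, with overlapping genotypes. *Ehmt2* (G9a) and *Ehmt1* (GLP), which form the complex for mono- and dimethylation of H3K9, were at -0.10 and -0.053, and *Ehmt2* had the lowest value of all 46 (95% interval -0.29 to 0.083).

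The HP1 proteins and the other readers, like the smaller ISWI, SWI/SNF and PRC2 families, had every log2 fold change above 0, from 0.043 to 0.14 with a median of 0.083. With 1 library left out, *Smarca1*, *Smarca2*, *Smarca4* and *Ezh1* of those smaller families fell as low as -0.033, -0.076, -0.026 and -0.070. Genotypes did not overlap for 3 of the 5 HP1 and reader genes, where they did not for 8.31% of all genes tested. The family is too small for this share to be read as an excess. In the other families only *Chd2* and *Rad54l2* had separate genotypes, and over all 46 genes the share was 10.9%. *Cbx1* (HP1β; ENSMUSG00000018666, chromosome 11 from 96789127 to 96808640) was at 91.5, 92.6 and 90.0 CPM in Atrx-cKO and 89.9, 88.5 and 87.7 CPM in control. The gap was narrow and disappeared with RLE scaling, without the filter on low counts, and without Atrx-cKO replicate 2, control replicate 2 or control replicate 3. *Mphosph8* (ENSMUSG00000079184, chromosome 14 from 56668248 to 56697430), which reads trimethylated H3K9 for the HUSH silencing complex, was at 33.7, 34.0 and 33.9 CPM in Atrx-cKO and 29.7, 32.1 and 31.1 CPM in control. Its Atrx-cKO libraries lay close together above the highest control, 33.9 ± 0.117 against 31.0 ± 1.20 CPM (SD, n = 3 each), with a log2 fold change of 0.13 ± 0.0750 (SE, edgeR unadjusted p = 0.126).

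*Morc3* (ENSMUSG00000039456, chromosome 16 from 93832121 to 93876073) encodes an ATPase that takes part in silencing of endogenous retroviruses, listed with this family although its own reader domain binds methylated H3K4. It had the lowest unadjusted p of the 46 genes. Its values were 72.2, 75.3 and 76.0 CPM in Atrx-cKO and 70.4, 67.7 and 64.2 CPM in control, all Atrx-cKO libraries being above all controls, with a log2 fold change of 0.14 ± 0.0695 (SE) and a 95% interval from -0.018 to 0.31. The 2 remaining genes of the family, *Cbx3* (HP1γ) and *Cbx5* (HP1α), had overlapping genotypes and log2 fold changes of 0.065 and 0.083. *Cbx3* has several annotated processed pseudogenes, which could take part of its reads. When each library was omitted in turn, the estimate stayed above 0 for all 5 genes, with ranges of 0.022 to 0.053 for *Cbx1*, 0.042 to 0.088 for *Cbx3*, 0.0051 to 0.20 for *Cbx5*, 0.0997 to 0.15 for *Mphosph8* and 0.096 to 0.18 for *Morc3*. This was not particular to the family: the estimate also stayed above 0 for *Smarca5*, *Chd1*, *Chd2*, *Chd5*, *Setdb2*, *Suv39h1*, *Suv39h2*, *Atf7ip*, *Ezh2*, *Eed* and *Suz12*.

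In all, 5 of the 46 genes (10.9%) had genotypes that did not overlap, against the same 8.31%. All 3 Atrx-cKO libraries were above the controls for 4 genes, against 4.3% of all genes, and below them for *Rad54l2* alone, against 4.01%. The share was thus near that of genes at large, and none of the 5 passed the test. Without control replicate 1 the count above the controls was 15 of 46, against a background of 13.4%, as described with the differences between libraries.

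**Figure D3:**
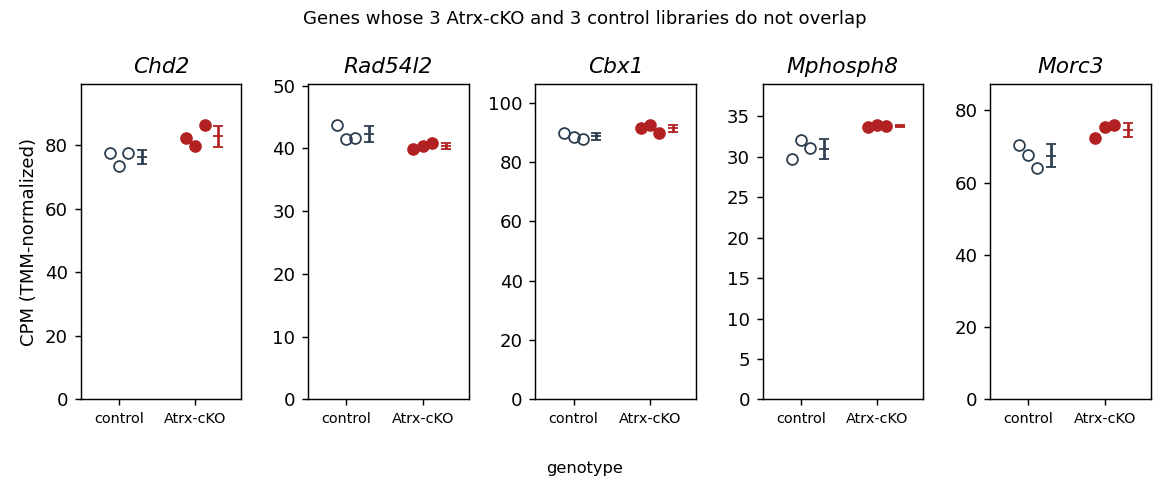
TMM-normalized CPM of the 5 genes whose Atrx-cKO and control libraries did not overlap. Each point is a library, bars show the mean and SD of 3 libraries, and each axis starts at 0. The distance between genotypes is small beside the level, with log2 fold changes from -0.069 (*Rad54l2*) to 0.14 (*Morc3*).

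The DNA methylation factors were led by *Mbd2*, which recruits NuRD to methylated CpG, at 137, 144 and 146 CPM in Atrx-cKO and 133, 162 and 160 CPM in control. *Dnmt3b*, a de novo methyltransferase, was the least abundant per length at 10.9, 8.88 and 9.80 CPM against 9.31, 8.86 and 10.3 CPM. Genotypes overlapped for each of the 6 genes. The log2 fold changes were 0.065 for *Dnmt1*, the maintenance methyltransferase, 0.10 for *Uhrf1*, which guides *Dnmt1* to newly replicated DNA, -0.022 for *Dnmt3a*, 0.056 for *Dnmt3b*, 0.017 for *Mbd1* and -0.092 for *Mbd2*. Per length *Dnmt1* exceeded *Dnmt3a* by 2.09 ± 0.491 times in Atrx-cKO and 1.95 ± 0.323 times in control, and *Dnmt3a* exceeded *Dnmt3b* by 5.07 ± 0.809 and 5.30 ± 0.237 times (SD, n = 3 each). The order of *Dnmt1* and *Dnmt3a* rests on the annotated lengths, 7377 and 16642 bases. In CPM *Dnmt1* was the lower, with means of 148 in Atrx-cKO and 141 in control against 161 and 164.

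The 4 PRC2 genes had log2 fold changes from 0.021 to 0.092 with a median of 0.080. *Suz12*, a core subunit, was the most abundant per length at 97.2, 81.6 and 87.4 CPM in Atrx-cKO and 93.6, 77.6 and 80.1 CPM in control. *Ezh1*, the methyltransferase of resting cells, was the least abundant at 42.3, 52.8 and 47.7 CPM against 47.2, 47.3 and 46.3 CPM. *Ezh2*, its counterpart in dividing cells, and the H3K27me3-binding subunit gene *Eed* were at 0.092 and 0.077, and all 4 overlapped. The *Ezh2* to *Ezh1* ratio per length was 1.72 ± 0.210 in Atrx-cKO and 1.63 ± 0.266 in control. Over 11 pairs of related genes the ratio per length overlapped between genotypes in every pair, including *Suv39h1* to *Suv39h2* (3.99 ± 0.402 and 4.16 ± 1.02), *Ehmt2* to *Ehmt1* (3.40 ± 0.116 and 3.53 ± 0.124) and *Setdb1* to *Setdb2* (3.42 ± 0.240 and 3.79 ± 0.50, SD, n = 3 each).

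Subunits and opposing enzymes of the same complexes gave a like picture. Of 56 partner genes (subunits of SWI/SNF, NuRD, INO80 and SWR1, PRC2 and HUSH, ISWI partners, and histone and DNA demethylation enzymes), 0 were called and 0 had an unadjusted p under 0.05 in edgeR, and DESeq2 likewise gave 0 by either threshold. Their median log2 fold change was 0.033, with 34 above and 22 below 0. Genotypes did not overlap for 3 of 56 (5.36%, against 8.31% of all genes tested), named after their values were seen: the PRC2 accessory gene *Mtf2* (log2 fold change 0.18, unadjusted p = 0.0508) and the H3K27 demethylase gene *Kdm6a* (0.15, unadjusted p = 0.0693) lay higher, and the SWI/SNF subunit gene *Smarcc2* (-0.057, unadjusted p = 0.457) lower.

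Differences between libraries of the same genotype were larger than those between genotypes for several genes, and they ran together. In each genotype replicate 1 had the highest value for 17 of the 46 genes (37.0%), against 15.7% of all genes tested. *Uhrf1* was at 93.8, 73.7 and 69.7 CPM in Atrx-cKO and 91.4, 67.3 and 61.8 CPM in control, and *Dnmt1* at 174, 136 and 132 CPM against 171, 129 and 124 CPM. Replicate 1 stood clear of the other libraries by about the same amount in either genotype for these 2 genes. *Suv39h1* showed it mainly in control, at 41.0, 38.3 and 35.9 CPM against 44.5, 30.3 and 31.3 CPM, as did *Ezh2*, at 73.9, 72.4 and 72.7 CPM against 81.8, 60.6 and 63.2 CPM, and *Hells* mainly in Atrx-cKO. The others were *Smarca4*, *Smarca5*, *Chd1*, *Chd7*, *Ep400*, *Rad54l*, *Rad54b*, *Trim28*, *Atf7ip*, *Cbx5*, *Eed* and *Suz12*. In contrast, replicate 1 was the lowest in each genotype for 9 genes (19.6%, against 16.3% of all genes), *Smarca1*, *Smarca2*, *Chd3*, *Chd6*, *Ercc6*, *Mbd2*, *Mphosph8*, *Setdb2* and *Srcap*. Neither the labels nor the paper describe a pairing of mice by number. Whether same-numbered libraries shared a litter, a harvest or a preparation is not stated.

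The 12 cell cycle markers, such as *Mki67* and the *Mcm* genes of the replicative helicase, had the same order. Replicate 1 was the highest in each genotype for 12 of 12, and the list summed to 1742, 1316 and 1406 CPM in Atrx-cKO and 1752, 1194 and 1161 CPM in control. The erythroid markers (replicate 1 highest for 9 of the 9 measured) summed to 4900, 3773 and 4298 CPM against 6252, 2415 and 2988 CPM, and the neutrophil markers (replicate 1 highest for 6 of 8) to 12720, 9311 and 9021 CPM against 10597, 8870 and 7387 CPM. B cell markers, with sums of 251, 289 and 345 CPM against 332, 186 and 261 CPM, had replicate 1 highest in each genotype for 0 of 8. The osteoclast sums ran from 2011 to 2743 CPM in Atrx-cKO and from 2305 to 3794 CPM in control, and the chondrocyte sums from 801 to 1171 CPM and from 1094 to 1603 CPM. Between genotypes, log2 fold changes were above 0 for 12 of 12 cell cycle, 8 of 9 erythroid, 8 of 8 B cell and 8 of 8 neutrophil markers. They were below 0 for 8 of 8 osteoclast, 9 of 10 osteoblast and osteocyte, 7 of 8 skeletal muscle and 3 of 6 chondrocyte markers. No marker was called at an adjusted p under 0.05 in edgeR. The part of dividing and blood-forming cells in the levels of the 46 genes was not tested. The sum over the 46 genes hardly moved, at 3904, 3810 and 3814 CPM in Atrx-cKO and 3913, 3725 and 3737 CPM in control.

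**Figure D4:**
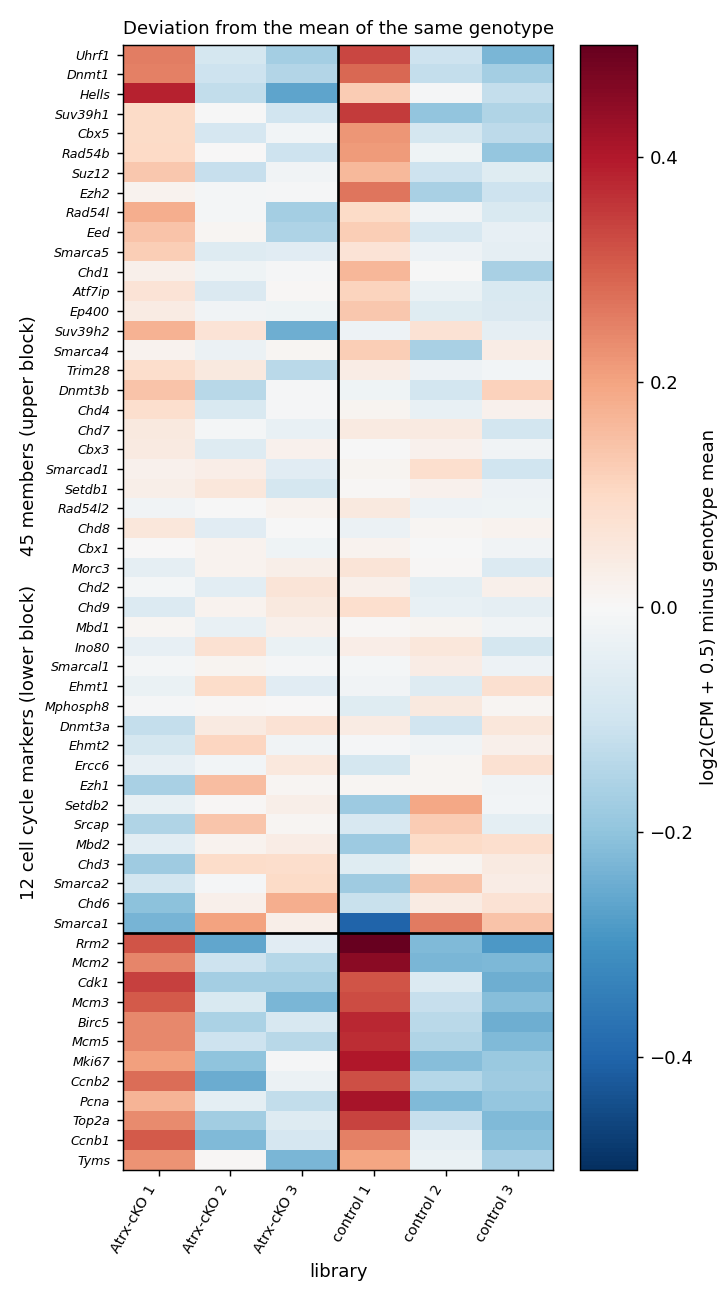
Deviation of each library from the mean of its genotype, as log2(CPM + 0.5), for 45 of the 46 genes (*Chd5*, at 23 to 58 counts, is left out) and, below the horizontal line, the 12 cell cycle markers. Red is above and blue below the mean, and the vertical line separates the genotypes. The upper rows, *Uhrf1*, *Dnmt1*, *Hells* and *Suv39h1*, are red in replicate 1 of each genotype like all 12 markers.

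This order of libraries touched the comparison of genotypes. Without control replicate 1, the Atrx-cKO libraries lay above the 2 remaining controls for 15 of 46 genes (32.6%), where 13.4% of all genes did, and for 8 of the 12 cell cycle markers, 8 of the 9 erythroid markers and 4 of the 8 neutrophil markers. The Atrx-cKO libraries lay above for only 1 of the 8 B cell markers and 1 of the 10 osteoblast and osteocyte markers (*Sost*). They did so for 0 of the skeletal muscle, osteoclast and chondrocyte markers. They lay below for 4 of 46 genes, against 14.2%, for 7 of the 10 osteoblast and osteocyte markers, 2 of the 8 osteoclast markers and 2 of the 6 chondrocyte markers. The part of these cell types in the shift was not tested. The 15 included *Dnmt1*, *Uhrf1*, *Suv39h1*, *Ezh2*, *Suz12*, *Cbx5* and *Smarca5*. In that fit *Suv39h1*, *Ezh2* and *Cbx5* had an unadjusted p under 0.05, with log2 fold changes of 0.32, 0.24 and 0.20 and edgeR adjusted p-values of 0.341, 0.341 and 0.509, against 4.13% of all genes higher by that threshold. None passed the adjusted threshold, and with all 6 libraries their log2 fold changes were 0.12, 0.092 and 0.083.

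Promoter sequence is shown for the 4 genes whose replicate 1 stood highest above the genotype mean in log2 level, summed over both genotypes. The windows run from 250 bases before to 50 bases after the start of the RefSeq transcript, on GRCm38.p6: *Uhrf1* at chr17:56304063-56304362 (plus strand), *Dnmt1* at chr9:20952574-20952873 (minus strand), *Hells* at chr19:38930740-38931039 (plus strand) and *Suv39h1* at chrX:8074312-8074611 (minus strand). Those of *Uhrf1*, *Dnmt1* and *Suv39h1* lie within the annotated span of the gene. *Dnmt1* is annotated from 20907209 to 20959888, so its window may not hold the main start of the gene. Capitals mark the letters of the E2F motif, searched as TTTCCCGC, TTTCGCGC, TTTGCCGC and TTTGGCGC on both strands. E2F proteins switch on genes at entry into S phase.
Uhrf1: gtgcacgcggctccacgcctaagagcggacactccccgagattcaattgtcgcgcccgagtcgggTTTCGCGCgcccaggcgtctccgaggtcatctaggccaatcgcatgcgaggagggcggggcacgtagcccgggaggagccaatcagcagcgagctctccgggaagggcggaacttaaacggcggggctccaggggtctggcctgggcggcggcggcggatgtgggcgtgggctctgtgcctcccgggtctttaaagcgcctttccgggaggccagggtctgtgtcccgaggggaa
Dnmt1: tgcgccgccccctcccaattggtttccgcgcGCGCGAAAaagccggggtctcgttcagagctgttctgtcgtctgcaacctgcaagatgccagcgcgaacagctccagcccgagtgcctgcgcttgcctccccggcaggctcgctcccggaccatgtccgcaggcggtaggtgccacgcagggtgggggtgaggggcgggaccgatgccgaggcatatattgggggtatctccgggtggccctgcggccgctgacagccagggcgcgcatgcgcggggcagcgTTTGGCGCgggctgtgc
Hells: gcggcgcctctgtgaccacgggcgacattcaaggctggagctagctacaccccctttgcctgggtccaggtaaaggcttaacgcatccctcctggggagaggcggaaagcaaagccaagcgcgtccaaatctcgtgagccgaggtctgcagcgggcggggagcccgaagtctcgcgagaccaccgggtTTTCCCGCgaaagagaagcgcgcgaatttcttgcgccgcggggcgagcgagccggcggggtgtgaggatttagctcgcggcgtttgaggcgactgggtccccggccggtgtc
Suv39h1: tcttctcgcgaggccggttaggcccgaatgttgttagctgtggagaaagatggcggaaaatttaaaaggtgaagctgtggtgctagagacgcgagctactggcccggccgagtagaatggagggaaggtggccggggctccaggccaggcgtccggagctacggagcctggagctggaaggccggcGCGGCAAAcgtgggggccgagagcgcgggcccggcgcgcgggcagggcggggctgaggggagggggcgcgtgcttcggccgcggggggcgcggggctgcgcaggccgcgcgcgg
The motif letters, chosen after the values were seen, occurred in 744 of 32851 promoters (2.26%) and in 7 of the 52 promoters listed for 38 of the 46 genes: once each for *Uhrf1*, *Hells*, *Suv39h1*, *Suz12*, *Ezh2* and *Cbx3* and at 2 positions in *Dnmt1*. Of these 7 genes all but *Cbx3* had replicate 1 highest in each genotype. The letters were present for 6 of the 14 such genes with a promoter entry and for 1 of the other 24. They were present in 3 of the 12 promoters of the cell cycle markers, although all 12 markers had replicate 1 highest. Since the motif was chosen with this pattern known, these counts are a description and no test. A part of E2F in the pattern was not tested. These promoters were also rich in CpG, with a median of 28 CpG for the 52 windows against 7 for all promoters. Among the 4657 promoters with at least 28 CpG, 244 (5.24%) held the letters, as did 7 of the 27 such windows of the 46 genes. A match describes the letters in the window and is not a measurement of E2F binding.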

How the data were processed

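RNA-Seq of polyadenylated RNA was performed on whole tibias of male mice, 3 Atrx-cKO and 3 control. The authors deposited raw counts per Ensembl gene, 1 table per library, without normalization. The submitters' processing notes name GRCm38 and DESeq2, and the aligner and counter are not given in the sources used here. Reads on no feature (51.6% to 52.4% of each table), ambiguous (0.644% to 0.701%) and not uniquely aligned reads (3.69% to 4.56%) were kept out of library sizes. Genes were named with GENCODE M21 on GRCm38 (55141 of 55401 identifiers). The labels call the libraries strand specific, but the named library kit does not mark strand. No source used here says that counting used strand, so how reads on antisense overlaps were counted is not known.

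Counts were fitted with edgeR 4.0.16 in R 4.3.3 (TMM, filterByExpr, quasi-likelihood test, genotype only, all 6 libraries), with Benjamini-Hochberg adjustment over 20636 genes. Intervals at 95% were taken from the quasi-likelihood F statistic and its degrees of freedom. DESeq2 1.42.0, RLE and upper quartile scaling, 2 other filters, the replicate number as a block, and each library left out were the 12 alternatives. In simulated counts for the 20636 genes, edgeR recovered 52 of 94 genes changed by 1 on the log2 scale and 84 of 106 changed by 2, with 12 false calls. Levels between genes are CPM per kilobase of merged exons. Promoters are RefSeq windows on GRCm38.p6.

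The 46 genes, their families, the partner and marker lists were chosen with earlier results of these data known. Values in every library are given for genes with an unadjusted p under 0.05 or non-overlapping genotypes and for the most and least abundant gene of each family. Those of *Hells*, *Uhrf1*, *Dnmt1*, *Suv39h1* and *Ezh2* were added after they were seen. The mice are separate animals, and replicate counts differed by 17.1 to 149 times the sampling noise (chi-square per degree of freedom). Over the 20636 genes tested, deviations of same-numbered libraries showed little correlation (from -0.0707 to 0.0619), and the numbers were not used as pairs. Part of the genes, such as the cell cycle markers, nevertheless had replicate 1 highest in each genotype.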

Additional observations from a re-analysis of the deposited data

How the results depend on the processing

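No called count depended on the processing: 0 of the 46 genes and 0 of the 56 partner genes passed an adjusted p of 0.05 in edgeR, in DESeq2 and under each of the 12 alternatives. At an unadjusted p under 0.05, the 46 genes gave 0 to 3 higher and 0 lower when 1 library was left out (3 without control replicate 1, as described), and 0 under the other alternatives. The partner genes gave 0 to 3 higher and 0 to 1 lower when 1 library was left out, and 1 higher (*Mtf2*) with at least 10 counts required in every library. With the replicate block, 1 partner gene (*Baz1a*) was higher at an unadjusted p under 0.05 (adjusted p = 0.974 in edgeR), no gene of either list was called, and the median log2 fold change of the 46 was 0.048. The block thus changed no call.

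That median ran from 0.0016 to 0.051 over the left-out libraries and was lowest without control replicate 3, the library rich in muscle transcripts. Leaving out Atrx-cKO replicate 1 gave 0.019, and leaving out control replicate 2 gave 0.023. Genes with all Atrx-cKO libraries above the controls numbered 3 to 15 over the left-out libraries (15 without control replicate 1) and those below 1 to 4. With RLE scaling and without the filter they numbered 3 above, and with upper quartile scaling 5. The direction turned in at least 1 left-out-library fit for 24 of the 46 genes, none with a value past a threshold, and for 0 of 46 under the other alternatives. The log2 fold changes over those fits were *Smarca1* -0.033 to 0.28, *Smarca2* -0.076 to 0.079, *Smarca4* -0.026 to 0.12, *Chd3* -0.13 to 0.0066, *Chd6* -0.11 to 0.085, *Chd7* -0.068 to 0.012, *Chd8* -0.0034 to 0.045, *Chd9* -0.045 to 0.033, *Ino80* -0.021 to 0.062, *Srcap* -0.15 to 0.016, *Ep400* -0.015 to 0.11, *Smarcad1* -0.0078 to 0.096, *Smarcal1* -0.041 to 0.0019, *Hells* -0.0035 to 0.34, *Rad54l* -0.13 to 0.046, *Rad54b* -0.049 to 0.18, *Setdb1* -0.045 to 0.034, *Trim28* -0.088 to 0.019, *Dnmt1* -0.073 to 0.22, *Dnmt3a* -0.069 to 0.034, *Dnmt3b* -0.023 to 0.12, *Uhrf1* -0.037 to 0.29, *Mbd1* -0.0048 to 0.026 and *Ezh1* -0.070 to 0.098. The cause was not tested. *Chd5* had the fewest counts of the 46, 23 to 58 per library, and the widest interval.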

Other observations

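Several of the 46 genes share exon bases with genes on the opposite strand. If counting ignored strand, reads on the shared bases were tallied apart and the counts are partial. If counting used strand on libraries that did not keep it, reads of the opposite gene could be counted with theirs. *Rad54l* shares 1184 of 7706 exon bases with *Lrrc41*, *Suv39h1* 767 of 5270 with *Gm14820* and *Chd8* 953 of 16523 with *Gm26590*. *Gm42715*, which covers most of the exon bases of *Srcap*, was itself at 2.14, 2.35 and 4.02 CPM in Atrx-cKO and 2.77, 2.61 and 3.47 CPM in control, with a log2 fold change of -0.055. The spread between libraries of a genotype differed widely among the 46 genes. The within-genotype SD of the log2 level was 0.0193 for *Cbx1*, 0.0241 for *Smarcal1* and 0.0256 for *Mbd1*, and 0.234 for *Dnmt1*, 0.256 for *Hells*, 0.263 for *Uhrf1*, 0.293 for *Smarca1* and 0.297 for *Chd5*, with a median of 0.0993 over the 46 genes against 0.175 over all genes tested.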
